A study of Mus musculus with 4 samples.

Results

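The genes described here are 10 receptors by which mouse natural killer (NK) cells read other cells. They are the Ly49 receptors Klra4 (Ly49D), Klra7 (Ly49G) and Klra8 (Ly49H), the NKR-P1 receptors Klrb1a (NKR-P1A) and Klrb1c (NK1.1), and Klrd1 (CD94), Klre1 (KLRE1), Klrk1 (NKG2D) and Klrg1 (KLRG1). These 9 belong to the C-type lectin-like families. The 10th, Ncr1 (NKp46), is an immunoglobulin-like receptor and not a lectin, and is listed with them. They were taken by name as rows of both expression matrices, 10 of 32285 genes. They accounted for 12854 of 5463434 UMIs (unique molecular identifiers, each marking 1 captured transcript) in the KO library and 11233 of 6976374 UMIs in the Ctrl library.

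The cells came from tumours formed by MC38, which is a colon carcinoma line of the mouse, injected subcutaneously into C57BL/6 females that were 12 to 16 weeks old and taken 18 days later. KO recipients were Prdm1 f/f with a cre that is active in B cells and deletes the floxed alleles there. Ctrl recipients were Prdm1 f/f without cre, so both genotypes carry the floxed alleles. Tumours of 11 recipients per genotype were pooled, B220+ cells and CD138+ cells were sorted from the living cells and combined, and 1 expression library and 1 B cell receptor library were made from each pool. B220 is a form of CD45 that marks B cells and is also carried by some mouse NK cells and plasmacytoid dendritic cells. The study was designed around tumour-infiltrating B cells, and the NK cells described here came along with the sort.

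With 1 library per genotype no difference has a replicate check, no test was possible, and genotype, pool of mice, sort and library cannot be told apart. Each level is a sum of UMIs over the cells of a group, per 1000000 UMIs of that group (CPM). UMIs mark transcripts at 1 end, so CPM values were not divided by gene length. Intervals are 95% intervals for counting error only. They leave out the spread between cells, so they can be too narrow. Differences are named by size, at 1.5-fold, among genes with at least 50 UMIs over the groups compared.

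NK cells kill or spare a target by adding up signals from activating and inhibitory receptors. Inhibitory receptors such as Ly49G, KLRG1 and CD94 paired with NKG2A carry motifs that recruit phosphatases, while activating ones such as Ly49D, Ly49H, NK1.1, NKG2D and NKp46 have short tails and signal through adaptors, DAP12 (Tyrobp), DAP10 (Hcst), the Fc receptor gamma chain (Fcer1g) or CD3 zeta (Cd247). The Ly49 genes are known for variegated expression, each being switched on in a subset of NK cells, whereas NKG2D and NKp46 are found on nearly all of them. Granzymes C, D and E are proteases of the cytotoxic granule that strongly activated NK cells and T cells make.

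The libraries held 897 KO and 816 Ctrl barcodes, with a median of 3966 UMIs in KO and 5851 in Ctrl, and 3 barcode sequences occurred in both. After filters 862 KO and 800 Ctrl cells were kept. Prdm1, the targeted gene, had 16 UMIs in 287 KO B-like cells (15.9 CPM) and 1 UMI in 239 Ctrl B-like cells (1.08 CPM), against 43 UMIs in 47 plasma-like cells, all of the Ctrl library. The 5′ reads can lie outside the floxed exons, which the labels do not name, so this level does not check the label. In NK-like cells Prdm1 stood at 8.14 CPM in KO (18 UMIs) and 7.56 CPM in Ctrl cells (14 UMIs). Cells were clustered without the 10 receptors, without Gzmc, Gzmd and Gzme and without immunoglobulin genes, so the receptors' own counts did not enter the clustering. Other Klr genes and other granzymes stayed in. Klri2 and Klra9 were among the leading genes of the NK-like cluster led by Ccl5, so the levels across classes are not fully independent of the clustering.

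NK-like cells, named from 12 markers such as Eomes, Gzma and Nkg7, numbered 245 in KO (28.4% of kept cells) and 153 in Ctrl (19.1%). All 12 markers were found in them in both libraries, and none of their barcodes carried a B cell receptor contig. They were split at 5.55 summed Gzmc, Gzmd and Gzme UMIs per 10000 UMIs, their median over both libraries. Granzyme-high cells numbered 123 in KO and 76 in Ctrl, and granzyme-low cells 122 in KO and 77 in Ctrl. The split is a range and not a cell type, although the values were spread widely: 153 of the 398 cells had no UMI of these genes, 181 had at least 10, and 34 lay within 2-fold of the cut. Granzyme-high cells were also the deeper ones, with a median of 12129 UMIs in KO and 16343 in Ctrl, against 4552.5 in KO and 5692 in Ctrl granzyme-low cells. Most of them fell in the cluster led by Gzmg, Gzmf and Gadd45g (94 KO and 56 Ctrl cells), while most granzyme-low cells fell in the cluster led by Ccl5, Gzma and Sult2b1 (89 KO and 61 Ctrl cells). Another cluster, led by the interferon-induced Ifi44, held 31 KO and 23 Ctrl cells from both sides of the split.

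The receptors were NK cell genes in this sort. NK-like cells held 75.4% of their UMIs in KO and 69.7% in Ctrl kept cells, and cycling cells a further 11.4% in KO and 20.8% in Ctrl. T-like cells held 5.34% in KO and 7.44% in Ctrl. The 10 genes summed to 4335 CPM in KO and 4186 CPM in Ctrl NK-like cells. In B-like cells, taken as the background, they summed to 37.8 CPM in KO and 11.9 CPM in Ctrl. The source of the UMIs in B-like cells was not tested. No receptor had a UMI in more than 2.09% of KO or 1.67% of Ctrl B-like cells, at median depths of 2713 UMIs in KO and 3055 in Ctrl.

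**Figure D1:**
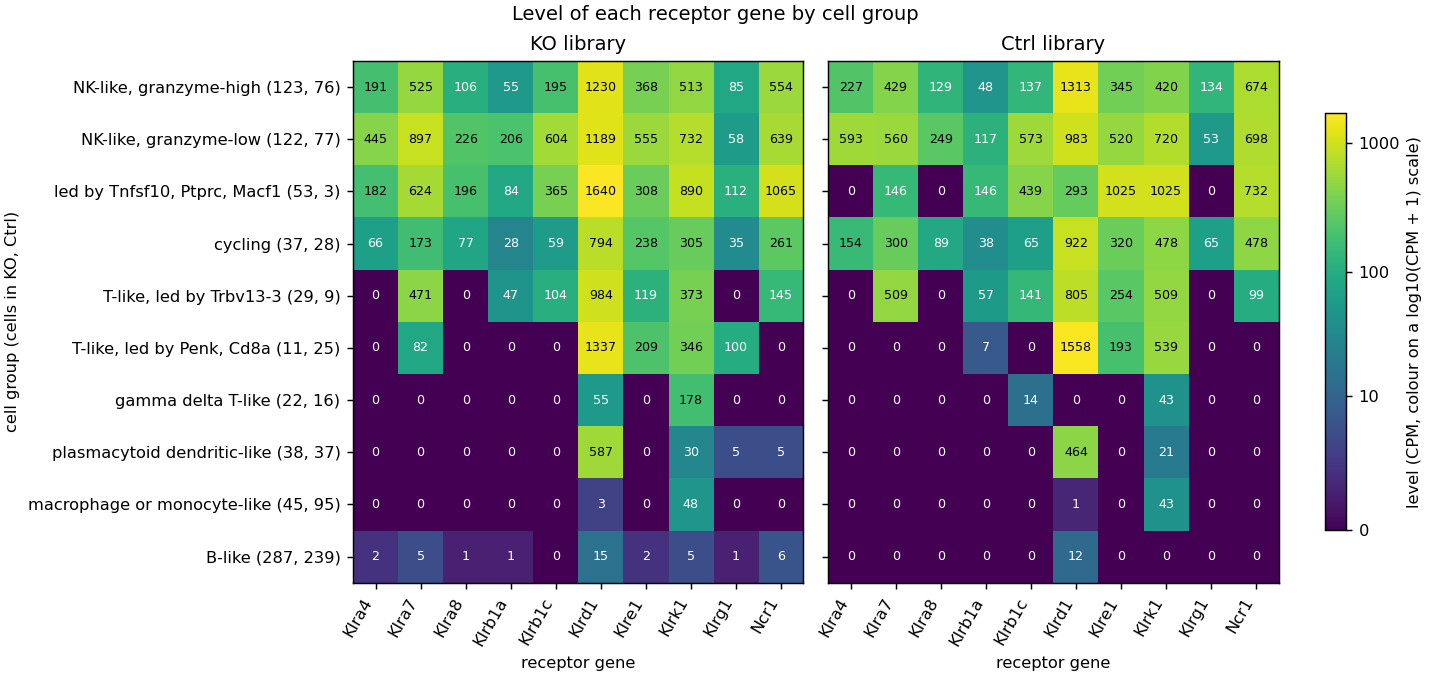
Level of each receptor gene (columns, CPM written in each cell, colour on a log10(CPM + 1) scale) by cell group (rows, with cells in KO and Ctrl), KO library on the left and Ctrl library on the right. The 10 genes are present together in the NK-like, Tnfsf10-led KO and cycling groups. Klrd1 stands alone at 587 CPM in KO and 464 CPM in Ctrl plasmacytoid dendritic-like cells. The B-like row is the background, whose source was not tested.

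The Ly49 receptors are encoded side by side. Of the 10 genes, 9 lie on chromosome 6 (GRCm38.p6) and 8 of these within 1624.1 kb, from 128609227 to 130233322, a stretch known as the NK gene complex. Klra4 runs from 130043730 to 130067301, Klra8 from 130115226 to 130129898 and Klra7 from 130218605 to 130233322. Klrg1 lies apart on the same chromosome, at 122270596 to 122282833, and Ncr1 on chromosome 7, at 4337715 to 4345184. Ly49D and Ly49H are both activating receptors that pair with DAP12. Their promoter windows in RefSeq (GRCm38.p6, 250 bases before to 50 after the start) matched at 259 of 299 aligned bases (86.6%). The other pairs of Klra and Klrb1 windows, including second entries of Klra7 and Klra8, matched at 29.6 to 59.3%. Windows were shifted against each other without gaps, so inserted bases or another start can lower a match. The second Klra8 entry matched Klra4 at 34.5%. Low values therefore do not show that promoters are unrelated. The 250 bases before the start are shown because the levels of these 2 genes ran together over cell groups. The start used for Klra4 lies inside the gene span given above. The lower end of its window is 130067272, and the span ends at 130067301. Capitals mark bases that differ between the windows or have no partner, both genes being on the minus strand, at chr6:130067272-130067521 for Klra4 and chr6:130129899-130130148 for Klra8.
Klra4: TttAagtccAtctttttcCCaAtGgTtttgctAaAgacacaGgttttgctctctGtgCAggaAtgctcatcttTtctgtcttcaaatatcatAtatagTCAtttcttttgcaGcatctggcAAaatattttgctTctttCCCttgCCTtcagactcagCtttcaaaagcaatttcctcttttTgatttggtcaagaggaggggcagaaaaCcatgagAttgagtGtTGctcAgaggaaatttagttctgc
Klra8: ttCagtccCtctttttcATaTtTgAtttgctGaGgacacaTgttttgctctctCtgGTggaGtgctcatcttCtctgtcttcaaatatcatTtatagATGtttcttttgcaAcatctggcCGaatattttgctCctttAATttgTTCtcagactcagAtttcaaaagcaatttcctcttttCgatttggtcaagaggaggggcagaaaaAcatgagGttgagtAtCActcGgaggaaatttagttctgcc
Reads from stretches that the Klra genes share can be split or dropped in counting, so values of the Klra and Klrb1 genes carry that uncertainty.

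Measured in CPM, Ly49D and Ly49H levels were lower in granzyme-high than in granzyme-low cells in both libraries. Klra4 stood at 191 CPM in KO granzyme-high cells against 445 CPM in KO granzyme-low cells, and at 227 CPM against 593 CPM in Ctrl cells. The ratio of high over low was 0.429 (0.364 to 0.506) in KO and 0.382 (0.324 to 0.449) in Ctrl. Klra8, whose product binds the m157 protein of mouse cytomegalovirus, stood at 106 CPM against 226 CPM in KO and 129 CPM against 249 CPM in Ctrl cells, with ratios of 0.469 (0.373 to 0.589) in KO and 0.519 (0.410 to 0.658) in Ctrl. Klra7 encodes the inhibitory Ly49G, which binds class I molecules. Its level was 525 CPM in KO granzyme-high against 897 CPM in KO granzyme-low cells, and 429 CPM against 559.7 CPM in Ctrl cells. The KO ratio of 0.585 (0.526 to 0.652) is past 1.5-fold and the Ctrl ratio of 0.767 (0.664 to 0.887) is not.

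The NKR-P1 receptors had the lowest ratios of the 10 in KO, and Klrb1c the lowest in Ctrl. Klrb1c, the NK1.1 antigen used to sort NK cells in this strain, stood at 195 CPM in KO granzyme-high against 604 CPM in KO granzyme-low cells, and at 137 CPM against 573 CPM in Ctrl cells. The ratios were 0.324 (0.278 to 0.377) in KO and 0.238 (0.197 to 0.288) in Ctrl. The deeper granzyme-high cells held fewer Klrb1c UMIs even per cell, 2.47 against 3.24 in KO and 2.42 against 3.77 in Ctrl. Klrb1a, its relative in the same family, had few UMIs, with 55.3 CPM against 206 CPM in KO and 47.5 CPM against 117 CPM in Ctrl cells. Its ratios were 0.268 (0.202 to 0.354) in KO and 0.407 (0.282 to 0.590) in Ctrl.

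CD94 and KLRE1 are partner chains with little signalling of their own. Klrd1, whose product pairs with NKG2A and its relatives to read the class I-like molecule Qa-1, stood at 1230.4 CPM in KO granzyme-high against 1189 CPM in KO granzyme-low cells. The ratio there was 1.03 (0.952 to 1.13), with an interval that includes 1. In Ctrl cells Klrd1 was 1313 CPM against 983 CPM, a ratio of 1.34 (1.21 to 1.48). Klre1, which pairs with KLRI1 or KLRI2, stood at 368 CPM against 555 CPM in KO and 345 CPM against 520.1 CPM in Ctrl cells. Both ratios, 0.663 (0.580 to 0.758) in KO and 0.663 (0.568 to 0.774) in Ctrl, lie on the 1.5-fold edge.

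NKG2D, NKp46 and KLRG1 went separate ways. Klrk1, the activating receptor for stress ligands such as RAE-1 and H60, stood at 513 CPM in KO granzyme-high against 732 CPM in KO granzyme-low cells, and at 420.4 CPM against 719.8 CPM in Ctrl cells. Its ratios were 0.701 (0.625 to 0.786) in KO and 0.584 (0.511 to 0.668) in Ctrl. Ncr1 differed little, with 554 CPM against 639 CPM in KO and 674 CPM against 698 CPM in Ctrl cells, and ratios of 0.867 (0.771 to 0.977) in KO and 0.966 (0.853 to 1.10) in Ctrl. Klrg1, an inhibitory receptor for cadherins, ran the other way, with 85.5 CPM against 58.1 CPM in KO and 134 CPM against 53.4 CPM in Ctrl cells. The Klrg1 ratios were 1.47 (1.02 to 2.17) in KO and 2.50 (1.67 to 3.90) in Ctrl, from 38 UMIs in KO and 27 in Ctrl granzyme-low cells. The KO value turned round when each cell counted equally, with a log2 ratio of -0.32 in place of 0.56. Other alternatives took it past 1.5-fold upward, such as 0.59 without Gzm UMIs in the totals and 2.49 with finer clusters (Leiden resolution 2).

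In all, 6 of the 10 genes were lower by 1.5-fold or more in granzyme-high cells in KO, where 16.8% of 4671 genes were, and 6 of 10 in Ctrl, where 18.9% of 4129 genes were. Klra4, Klra8, Klrb1a, Klrb1c and Klre1 were among them in both libraries, with Klra7 in KO and Klrk1 in Ctrl, and Klrg1 in Ctrl was the 1 gene past 1.5-fold in the other direction, where 7.06% of all genes in KO and 8.67% in Ctrl were. The median log2 ratio of the 10 was -0.68 in KO and -0.68 in Ctrl, against -0.15 in KO and -0.13 in Ctrl over all genes. Relative to that shift of all genes, 5 of 10 were lower by 1.5-fold or more in each library. Klre1 dropped out at log2 ratios of -0.44 in KO and -0.47 in Ctrl, while Klrg1 in KO passed 1.5-fold upward at 0.71. Ncr1 in Ctrl lay at 0.08, on the other side of 0. Granzymes C, D and E themselves took 2.91% of KO and 3.20% of Ctrl UMIs in granzyme-high cells. Without UMIs of Gzm genes in the totals, the count lower by 1.5-fold or more was 5 in each library. Klrg1 in KO then passed 1.5-fold upward at a log2 ratio of 0.59. These are ratios of CPM, and granzyme-high cells were deeper. In UMIs per cell, 1 of 10 receptors in each library was lower by 1.5-fold or more, Klrb1a in KO and Klrb1c in Ctrl, while 5 in KO and 6 in Ctrl were higher. Over all genes tested, 0.514% in KO and 0.533% in Ctrl were lower per cell, and the median ratio per cell was 2.13 in KO and 2.47 in Ctrl, against a median of 1.47 in KO and 1.68 in Ctrl over the 10 receptors. Klra4 was about level per cell (2.41 UMIs against 2.39 in KO, 4.01 against 3.90 in Ctrl). Klra8 was higher per cell (1.34 against 1.21 in KO, 2.29 against 1.64 in Ctrl). So were Klre1 (4.65 against 2.98 in KO, 6.11 against 3.42 in Ctrl) and Klrd1 (15.6 against 6.38 in KO, 23.3 against 6.45 in Ctrl).

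Markers of other cells also differed across the split. The summed level of 8 ILC1 markers was 187 CPM in KO and 226 CPM in Ctrl granzyme-high cells, against 82.5 CPM in KO and 75.1 CPM in Ctrl granzyme-low cells. That of 12 T cell markers was 252 CPM against 446 CPM in KO and 354 CPM against 209.6 CPM in Ctrl cells, and 14.6% of KO and 22.4% of Ctrl granzyme-high cells held a Cd3d, Cd3e or Cd3g UMI, against 14.8% of KO and 9.09% of Ctrl granzyme-low cells. The part of the ILC1 markers in the ratios was not tested. Without the cells that held a Cd3 UMI the counts lower by 1.5-fold or more were 6 in KO and 5 in Ctrl, Klre1 leaving in Ctrl. The interferon-led cluster alone had the highest Klrk1 level of the 3 NK-like clusters, 979 CPM in KO and 1013 CPM in Ctrl, and without it the counts were again 6 in KO and 6 in Ctrl.

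**Figure D2:**
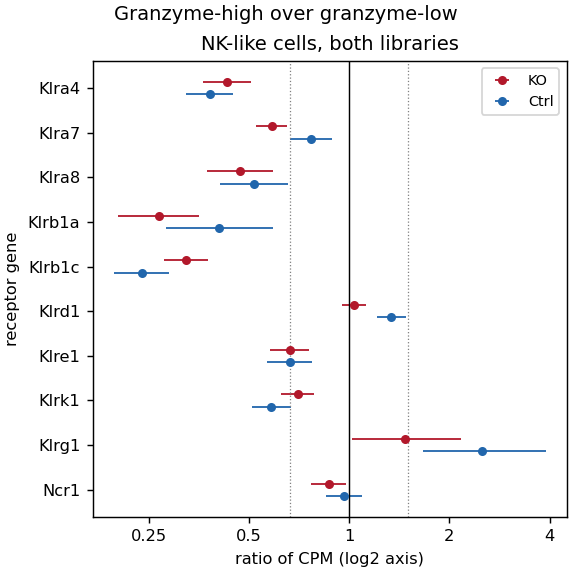
Ratio of CPM in granzyme-high over granzyme-low NK-like cells for each receptor gene (log2 axis), KO in red above Ctrl in blue, with 95% counting intervals; the solid line is 1 and the dotted lines are 1.5-fold. Klra4, Klra8, Klrb1a and Klrb1c lie left of the lower dotted line in both libraries, Klre1 sits on it, and Klrd1 and Klrg1 lie right of 1.

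Between genotypes the receptors were closer. Over all NK-like cells 1 of 10 passed 1.5-fold, where 5.17% of 6439 genes did. That gene was Klrb1a, at 100.0 CPM in KO and 66.4 CPM in Ctrl cells, a ratio of 1.51 (1.20 to 1.89) that sits on the edge and fell to a log2 ratio of 0.29, in place of 0.59, with finer clusters (Leiden resolution 2). Klra7 stood at 635 CPM in KO and 465 CPM in Ctrl cells, a ratio of 1.37 (1.25 to 1.49). Klrb1c (316 CPM in KO, 256 CPM in Ctrl, ratio 1.24, 1.10 to 1.39) and Klrk1 (578 CPM in KO, 502 CPM in Ctrl, ratio 1.15, 1.06 to 1.25) were also above 1 with intervals that leave it out. Below 1 were Klra4 (266 CPM in KO, 327 CPM in Ctrl, ratio 0.815, 0.726 to 0.914), Ncr1 (579 CPM in KO, 681 CPM in Ctrl, ratio 0.851, 0.786 to 0.920) and Klrg1 (77.4 CPM in KO, 112 CPM in Ctrl, ratio 0.692, 0.562 to 0.852). The intervals of Klra8 (0.874, 0.744 to 1.03), Klrd1 (0.996, 0.942 to 1.05) and Klre1 (1.08, 0.977 to 1.19) include 1. Whether an interval leaves out 1 is no test of genotype, since UMIs per cell spread more widely than counting error. In granzyme-high cells the variance over mean of UMIs per cell ran from 1.78 (Klre1, KO) to 13.0 (Klrg1, Ctrl). Counting error alone gives 1. For Klra4 the value was 8.59 in KO and 8.56 in Ctrl. The median log2 ratio of the 10 was 0.05, against -0.0029 over all genes.

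Within granzyme-high cells 1 of 10 passed 1.5-fold, where 6.92% of 5347 genes did, and it was Klrg1, at 0.640 (0.507 to 0.805). Within granzyme-low cells 2 of 10 did, where 7.92% of 3092 genes did: Klra7 at 1.60 (1.39 to 1.85) and Klrb1a at 1.77 (1.29 to 2.44). Klra7 lay above 1 and Klra4 below 1 in both granzyme groups, Klra7 at 1.22 (1.10 to 1.36) in granzyme-high cells and Klra4 at 0.843 (0.716 to 0.992) in granzyme-high and 0.750 (0.636 to 0.884) in granzyme-low cells. Ly49 genes of the same complex thus lay on opposite sides of 1. Klra8, which lies between Klra4 and Klra7, was at 0.821 in granzyme-high and 0.908 in granzyme-low cells, with intervals that include 1. Klrb1c was 1.43 (1.19 to 1.73) in granzyme-high and 1.05 (0.902 to 1.23) in granzyme-low cells. Shares near the background in these comparisons are no result about the receptors, and the spread between mice, which a pool of 11 animals hides, was not measured.

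**Figure D3:**
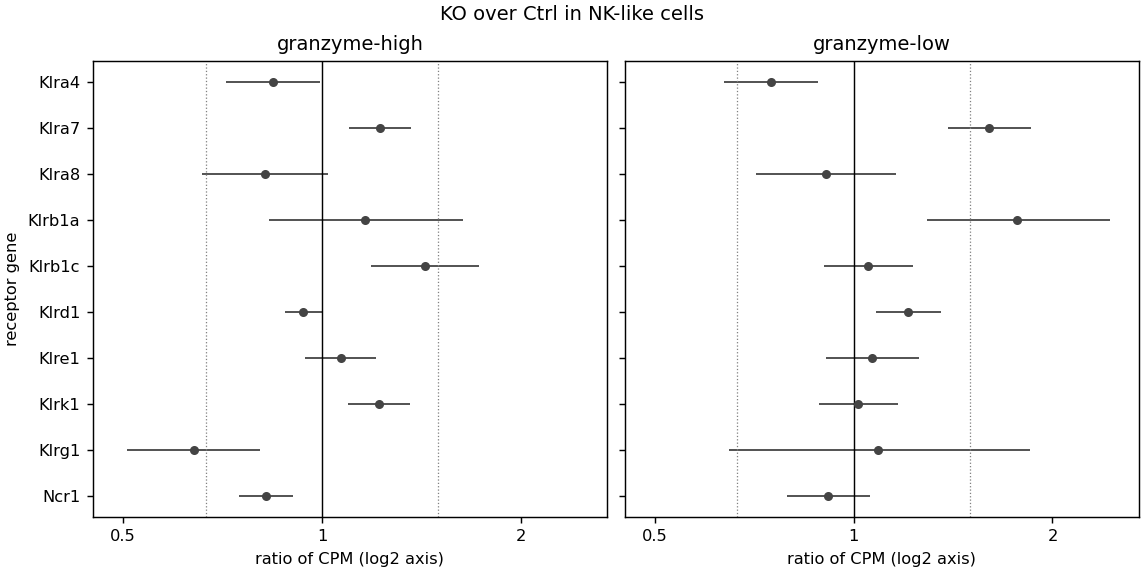
Ratio of CPM in KO over Ctrl cells for each receptor gene (log2 axis) in granzyme-high NK-like cells (left) and granzyme-low NK-like cells (right), with 95% counting intervals; the solid line is 1 and the dotted lines are 1.5-fold. Klrg1 in granzyme-high cells and Klra7 and Klrb1a in granzyme-low cells lie past a dotted line.

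T-like cells shared some receptors with NK-like cells and lacked others. The T-like class joined 62 KO and 50 Ctrl cells of 3 clusters, the gamma delta T-like one included, and all of them held a Cd3 UMI. NK-like cells were higher by 1.5-fold or more for 9 of 10 receptors in KO, where 10.6% of 5253 genes were, and for 8 of 10 in Ctrl, where 12.6% of 4894 genes were. Ly49D and Ly49H were at 0 UMIs in T-like cells of both libraries. With 0 set to 3 UMIs in the class, the ratio of NK-like over T-like cells was 33.4 in KO and 46.4 in Ctrl for Klra4. For Klra8 it was 17.8 in KO and 22.99 in Ctrl. The lower ends of the intervals were 27.1 in KO and 37.6 in Ctrl for Klra4, and 14.4 in KO and 18.6 in Ctrl for Klra8. Ncr1 stood at 579 CPM in NK-like against 74.4 CPM in T-like cells of KO (7.78, 5.36 to 11.8) and 681 CPM against 16.4 CPM in Ctrl (41.4, 20.04 to 103). Klrd1 differed least, with 1218 CPM in NK-like against 906 CPM in T-like cells of KO (1.34, 1.20 to 1.51) and 1223 CPM against 1179 CPM in Ctrl (1.04, 0.941 to 1.14). Klrk1, also a receptor of CD8 T cells, was 578 CPM against 327 CPM in KO (1.77, 1.47 to 2.14) and 502 CPM against 453 CPM in Ctrl (1.11, 0.948 to 1.30). The ratios of these 2 genes depended on the clustering: with coarser clusters (Leiden resolution 0.5) the log2 ratio of Klrk1 in Ctrl was 1.56 in place of 0.15 and that of Klrd1 in Ctrl 2.34 in place of 0.05, and all 10 receptors were past 1.5-fold in both libraries.

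The T-like clusters shared some receptors and not others, and the libraries hold them in different numbers. The cluster led by Trbv13-3, Trgv2 and Cd3d (29 KO and 9 Ctrl cells) had Klra7 at 471 CPM in KO and 509 CPM in Ctrl, Klrb1c at 104 CPM in KO and 141 CPM in Ctrl, and Ncr1 at 145 CPM in KO and 98.9 CPM in Ctrl. It also held Klrd1 at 984 CPM in KO and 805 CPM in Ctrl, Klrk1 at 373 CPM in KO and 509 CPM in Ctrl, and Klre1 at 119 CPM in KO and 254 CPM in Ctrl. When each cell was thinned, that is reduced to 1500 randomly drawn UMIs, 31.0% of its KO cells kept a Klra7 UMI. The cluster led by Penk, Trbv17 and Cd8a (11 KO and 25 Ctrl cells) had no UMI of Klra4, Klra8, Klrb1c or Ncr1, but had, like the other cluster, Klrd1 at 1337 CPM in KO and 1558 CPM in Ctrl, Klre1 at 209 CPM in KO and 193 CPM in Ctrl, and Klrk1 at 346 CPM in KO and 539 CPM in Ctrl. Gamma delta T-like cells led by Tcrg-V6 (22 KO and 16 Ctrl cells) held mainly Klrk1, at 178 CPM in KO and 43.3 CPM in Ctrl. Of the T-like barcodes, 5 in KO and 0 in Ctrl carried a B cell receptor contig, and leaving them out left the counts at 9 in KO and 8 in Ctrl.

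CD94 was also found without the rest of the set. Klrd1 stood at 587 CPM (486 to 703) in 38 KO and 464 CPM (389 to 550) in 37 Ctrl plasmacytoid dendritic-like cells, and 40.0% of KO and 54.1% of Ctrl cells kept a UMI after thinning to 1500 UMIs, against 1.08% of KO and 0.851% of Ctrl B-like cells. The other 9 genes had 8 UMIs there in KO and 6 in Ctrl, and Klrk1 was 6 of them in each. Macrophage- or monocyte-like cells held Klrk1 at 47.8 CPM (26.8 to 78.9) in KO and 43.3 CPM (30.3 to 59.9) in Ctrl, with 1 Klrd1 UMI in each library. Cycling cells, 37 in KO and 28 in Ctrl, had all 10 receptors, with Klrd1 at 794 CPM in KO and 922 CPM in Ctrl and Ncr1 at 261 CPM in KO and 478 CPM in Ctrl. They are named for their cycle genes and mix lineages: 70.3% of KO and 85.7% of Ctrl cells held an Eomes UMI, and 18.9% of KO and 14.3% of Ctrl cells a Cd3e UMI.

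A cluster led by Tnfsf10, Ptprc and Macf1 held 53 KO and 3 Ctrl cells, so it is mostly 1 library. It took the name of the ILC1 marker list at a score of 1.72, close to the NK list at 1.60, and is called here by its leading genes. Its KO cells were shallow (median 2104 UMIs) with a median of 3.98% mitochondrial UMIs, against 0.850% in KO granzyme-high and 0.940% in KO granzyme-low NK-like cells, and Gzmc, Gzmd and Gzme took 3.33% of their UMIs. They held all 10 receptors, with Ncr1 at 1065 CPM (903 to 1249), Klrd1 at 1640.3 CPM (1437 to 1864), Klrk1 at 890.2 CPM (742 to 1059), Klrb1c at 365 CPM (272 to 478) and Klra7 at 624 CPM (501 to 768). With this cluster counted among NK-like cells, 0 of 10 receptors passed 1.5-fold between genotypes, Klrb1a falling just short at a log2 ratio of 0.57.

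Receptors at like levels differed in how many NK-like cells held them. In KO granzyme-high cells Klra7, Klrk1 and Ncr1 all lay between 513 and 554 CPM. A Klrk1 UMI was found in 99.2% of the cells and an Ncr1 UMI in 95.9%, but a Klra7 UMI in 66.7%, and the cells with Klra7 held a median of 8 and a maximum of 50 UMIs. In Ctrl granzyme-high cells the same shares were 98.7% for Klrk1, 97.4% for Ncr1 and 63.2% for Klra7. Klra4 was found in 36.6% of KO and 46.1% of Ctrl granzyme-high cells, with a median of 5 UMIs in KO and 8 UMIs in Ctrl cells that had it. Klrg1 was the most uneven, since 6 of 123 KO cells and 5 of 76 Ctrl cells held 50% of its UMIs and 1 cell in each library held 15.8% in KO and 16.1% in Ctrl. Klrd1 was found in 99.2% of KO and 100% of Ctrl granzyme-high cells. After thinning to 3000 UMIs, Klrg1 was kept by 15.8% of granzyme-high against 10.4% of granzyme-low cells in KO. In Ctrl it was kept by 19.7% against 9.46%. At 5000 UMIs the Klrg1 shares were 18.3% against 13.7% in KO and 20.3% against 18% in Ctrl. The intervals of high and low cells overlapped at both depths in both libraries.

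**Figure D4:**
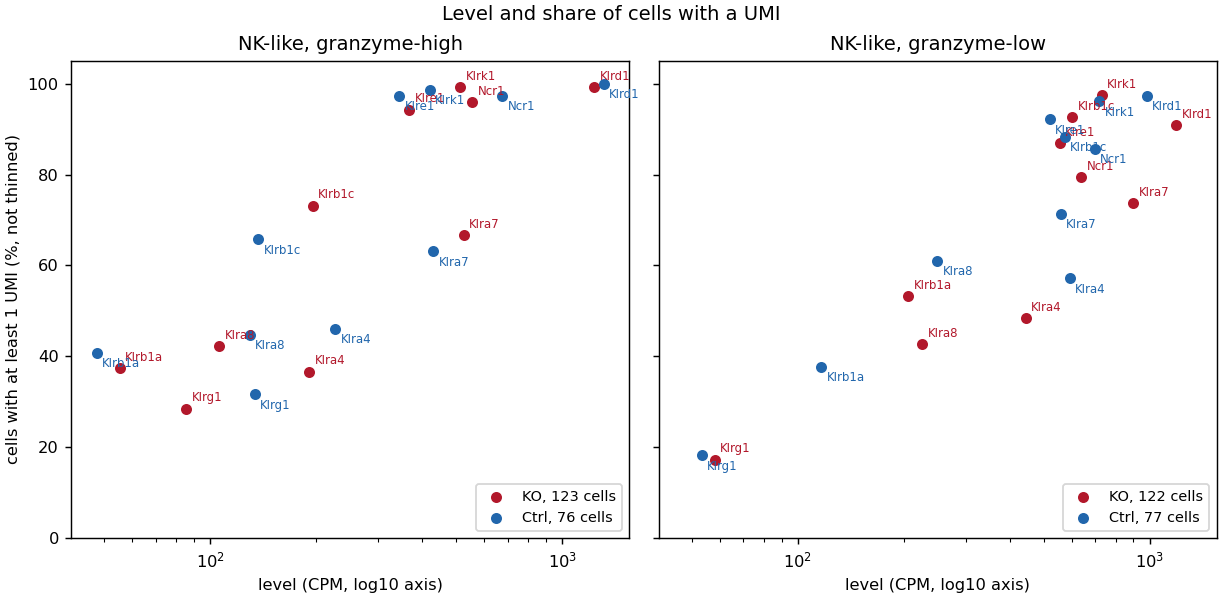
Level of each receptor gene (CPM, log10 axis) against the share of cells with at least 1 UMI (%, not thinned) in granzyme-high NK-like cells (left) and granzyme-low NK-like cells (right), KO in red and Ctrl in blue. Klra4, Klra7, Klra8 and Klrg1 lie below the receptors of like level; in KO granzyme-high cells Klra7 is at 66.7% where Klrk1 is at 99.2%.

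Because the granzyme groups differ in depth, shares were compared between them at an equal depth of 1500 randomly drawn UMIs per cell. A Klrb1c UMI was then kept by 23.8% (16.5 to 32.3%) of KO granzyme-high against 65.0% (55.8 to 73.5%) of KO granzyme-low cells, and by 19.7% (11.5 to 30.5%) against 59.2% (47.3 to 70.4%) of Ctrl cells. For Klra4 the shares were 15.6% (9.64 to 23.2%) against 35.0% (26.5 to 44.2%) in KO and 23.7% (14.7 to 34.8%) against 46.1% (34.5 to 57.9%) in Ctrl, where the ends of the intervals overlap. Klrd1 was kept by 77.9% against 69.2% in KO and 81.6% against 73.7% in Ctrl, with overlapping intervals. The intervals also overlapped for Klre1 (42.6% against 48.3% in KO, 44.7% against 59.2% in Ctrl) and for Ncr1 (48.4% against 51.7% in KO, 47.4% against 61.8% in Ctrl). Of B-like cells, 0 of 277 in KO and 0 of 235 in Ctrl kept a Klrb1c UMI, which allows shares of cells with a UMI of up to 1.08% in KO and 1.28% in Ctrl, taken as 3 cells of the total.

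At this depth nearly every NK-like cell showed at least 1 of the 10 receptors, 98.8% (96.4 to 99.7%) in KO and 99.3% (96.4 to 100.0%) in Ctrl. The median cell showed 4 in each library. Granzyme-high cells averaged 3.47 receptors in KO and 3.29 in Ctrl, against 4.53 in KO and 4.62 in Ctrl granzyme-low cells. At least 5 were found in 22.95% (15.8 to 31.4%) of KO and 25% (15.8 to 36.3%) of Ctrl granzyme-high cells, against 47.5% (38.3 to 56.8%) of KO and 52.6% (40.8 to 64.2%) of Ctrl granzyme-low cells. T-like cells averaged 1.22 in KO and 1.31 in Ctrl.

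**Figure D5:**
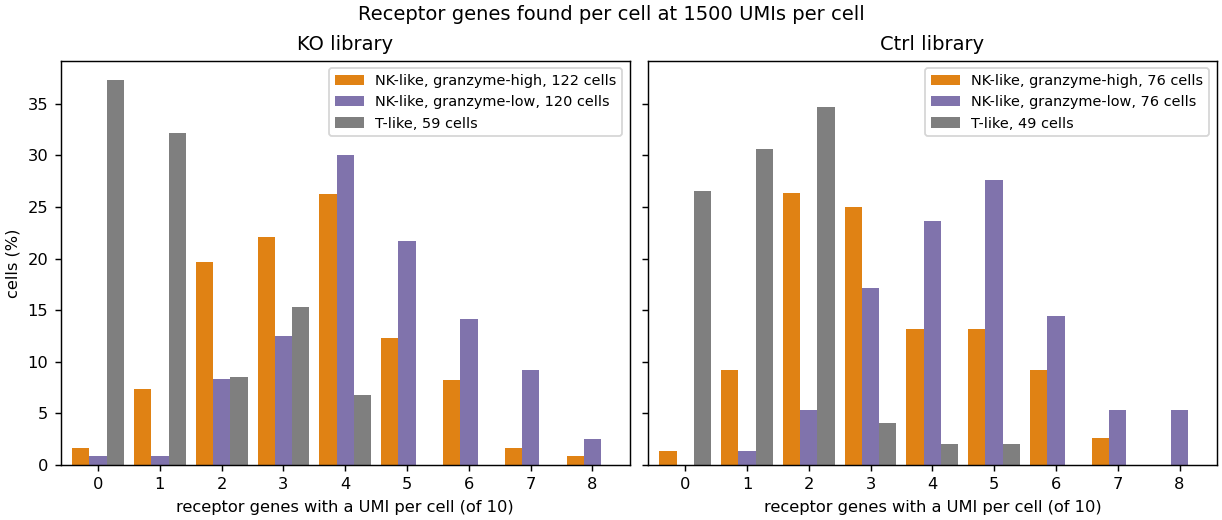
Share of cells (%, bars) by the number of receptor genes with a UMI per cell, of 10, after thinning to 1500 UMIs, in the KO library (left) and the Ctrl library (right), for granzyme-high NK-like (orange), granzyme-low NK-like (purple) and T-like cells (grey). Granzyme-high cells average 3.47 in KO and 3.29 in Ctrl, and granzyme-low cells 4.53 in KO and 4.62 in Ctrl.

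Co-detection in single cells lay near what the separate shares multiply to. Over the 45 pairs of receptors at 1500 UMIs, the share of NK-like cells with both was a median of 1.08 times the product of the 2 shares in KO and 1.05 times in Ctrl. Counting intervals with and without the partner were apart in both directions for 2 pairs in KO and 0 in Ctrl, and these shares mix granzyme-high with granzyme-low cells. Within granzyme-high or granzyme-low cells none of the 45 pairs was apart in either library at this depth. The counts depend on depth: at 3000 UMIs 2 pairs were apart in KO and 1 in Ctrl NK-like cells and 1 in KO granzyme-low cells (Klre1 with Klra8), and at 5000 UMIs 1 in KO and 1 in Ctrl NK-like cells. The 2 KO pairs at 1500 UMIs were Klrb1c with Klra4 and Klrb1c with Klrb1a: a Klrb1c UMI was kept by 64.4% of 45 KO cells with Klrb1a against 39.6% of 197 without it, and by 45.8% of 24 Ctrl cells with Klrb1a against 38.3% of 128 without. The share of cells with the inhibitory Ly49G was alike with and without the activating Ly49D. Klra7 was kept by 50.8% of 61 KO cells with Klra4 against 51.9% of 181 without, and by 43.4% of 53 Ctrl cells with Klra4 against 42.4% of 99 without. Klra8 was kept by 31.1% of KO cells with Klra4 against 16.6% without, with overlapping intervals, and by 18.9% of Ctrl cells with Klra4 against 19.2% without.

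Across 27 cell groups of at least 10 cells in a library, the levels of the receptors ran together. On log2(CPM + 10), Pearson's r over these groups was highest for Klra4 with Klra8 (0.99) and lowest for Klrd1 with Klra4 (0.65). The groups share libraries and differ widely in depth, so the values are descriptions. Of 9842 genes, those most like the mean of the 10 receptors outside the Klr family were Eomes, the transcription factor of mature NK cells (r = 0.99), Car2 (0.97), Fasl, the death ligand (0.94), C1qtnf6 (0.94) and Samd3 (0.93). Eomes and Samd3 are also markers that named the NK-like cells.

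Other Klr genes also differed across the granzyme groups. Of 18 listed, 16 were in the matrices, and 3 of 9 measured in KO and 5 of 8 measured in Ctrl were lower by 1.5-fold or more in granzyme-high cells, with 1 higher in each library. Counts across the granzyme groups, in this and the following lists, stand against the shares of all genes. These were 16.8% lower and 7.06% higher in KO and 18.9% lower and 8.67% higher in Ctrl. Klri2, an activating partner of KLRE1, stood at 80.4 CPM in KO granzyme-high against 211 CPM in KO granzyme-low cells and at 87.6 CPM against 204 CPM in Ctrl. Klrc1 (NKG2A), the inhibitory partner of CD94, stood at 246 CPM against 274 CPM in KO and 234 CPM against 142 CPM in Ctrl. Klrb1b, the inhibitory NKR-P1 receptor for Clec2d, stood at 134 CPM against 97.8 CPM in KO and 122 CPM against 85.0 CPM in Ctrl. Klrb1f stood at 159 CPM against 238 CPM in KO and 114 CPM against 168 CPM in Ctrl. Klra1 (Ly49A) was 109.9 CPM against 139 CPM in KO and 89.1 CPM against 160.2 CPM in Ctrl, and Klra9 (Ly49I) 107 CPM against 104 CPM in KO and 66.8 CPM against 160.2 CPM in Ctrl.

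Of the 7 signalling adaptors, 2 were lower by 1.5-fold or more in granzyme-high cells and 1 was higher, in KO and in Ctrl, with 7 measured in KO and 6 in Ctrl. Hcst (DAP10), the partner of NKG2D, stood at 276 CPM in KO granzyme-high against 552 CPM in KO granzyme-low cells and at 282 CPM against 621 CPM in Ctrl. Cd247 stood at 64.3 CPM against 173 CPM in KO and 60.9 CPM against 125 CPM in Ctrl. Tyrobp (DAP12), the partner of Ly49D and Ly49H, differed less, at 3194 CPM against 3544 CPM in KO and 2869.8 CPM against 3214 CPM in Ctrl, and so did Fcer1g, at 2562 CPM against 3471 CPM in KO and 2564 CPM against 3028 CPM in Ctrl. Tyrobp and Fcer1g were 803 CPM and 1476 CPM in the KO T-like cluster led by Trbv13-3 and at 0 UMIs in the KO T-like cluster led by Penk. Between genotypes, over all NK-like cells, all 7 adaptors lay within 1.5-fold. So did every measured gene of the lists of other Klr genes (9), kinases and phosphatases (10) and ligands (5). The same held for receptors outside the lectin families (11) and transcription factors (10). Of 9 granzyme and cytotoxic genes, 2 were higher in KO. Of all 6439 genes in this comparison 5.17% passed 1.5-fold in either direction, so a list with none past it is no result.

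Of 10 kinases and phosphatases, 1 of 9 measured in KO and 2 of 9 in Ctrl were lower by 1.5-fold or more in granzyme-high cells, shares near those of all genes and no result about the list. Fyn, a Src-family kinase, was among them at 74.6 CPM against 188 CPM in KO and 75.8 CPM against 174 CPM in Ctrl. Ptpn6 (SHP-1), the phosphatase of inhibitory Ly49 receptors, stood at 182 CPM against 173 CPM in KO and 226 CPM against 152 CPM in Ctrl. Of 17 ligand genes 14 were in the matrices and 5 were measured in NK-like cells, of which 2 in KO and 1 in Ctrl were lower and 1 in KO was higher by 1.5-fold or more, the Ctrl count being near the share of all genes. Clec2d, the ligand of NKR-P1B, was among them in both libraries, at 132 CPM in KO granzyme-high against 272 CPM in KO granzyme-low cells and 119 CPM against 239 CPM in Ctrl. H2-T23 (Qa-1), the ligand of CD94 with NKG2A, stood at 503 CPM against 743 CPM in KO and 568 CPM against 635 CPM in Ctrl, and at 1676 CPM in KO and 1486 CPM in Ctrl plasmacytoid dendritic-like cells.

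Among transcription factors, 3 of 8 measured in KO and 5 of 8 in Ctrl were lower by 1.5-fold or more in granzyme-high cells. Tbx21 (T-bet) stood at 97.7 CPM against 182 CPM in KO and 66.8 CPM against 129 CPM in Ctrl, and Eomes at 176 CPM against 238 CPM in KO and 165 CPM against 259 CPM in Ctrl. Id2 stood at 999 CPM against 993 CPM in KO and 822 CPM against 613 CPM in Ctrl. Of receptors outside the lectin families, 3 of 9 measured were lower and 1 higher in each library, Tigit at 96.4 CPM against 225 CPM in KO and 86.9 CPM against 194 CPM in Ctrl, and Cd96 at 84.9 CPM against 52.0 CPM in KO and 89.9 CPM against 43.5 CPM in Ctrl. Of 9 granzyme and cytotoxic genes, 3 of which make the split, 5 in KO and 6 in Ctrl were higher and 2 in each were lower. Gzma, not part of the split, stood at 2912 CPM against 10398 CPM in KO and 2426 CPM against 9643 CPM in Ctrl, and Prf1 (perforin) at 1229.8 CPM against 1099 CPM in KO and 1309 CPM against 680.3 CPM in Ctrl.

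RUNX3 and the T-box factors T-bet and Eomes are known regulators of NK cell genes, so the promoter windows of the receptors were searched for their short cores. RefSeq windows were found for 8 of the 10 genes, Klrd1 and Klrg1 having no entry in the table used. The RUNX core TGTGGT, or ACCACA on the other strand, was in 5 of 8 first windows (Klrb1a, Klrb1c, Klre1, Klrk1 and Ncr1), against 16.9% of 27025 windows of all genes. None of the 3 Ly49 first windows held it. The T-box core GGTGTG, or CACACC, was in 1 of 8 (Klra4), against 19.0%. The 250 bases before the start of NK1.1, among the lowest ratios of granzyme-high over granzyme-low cells, and of NKp46, within 1.5-fold in both libraries, are shown with RUNX cores in capitals, at chr6:128788642-128788891 on the minus strand for Klrb1c and chr7:4337465-4337714 on the plus strand for Ncr1.
Klrb1c: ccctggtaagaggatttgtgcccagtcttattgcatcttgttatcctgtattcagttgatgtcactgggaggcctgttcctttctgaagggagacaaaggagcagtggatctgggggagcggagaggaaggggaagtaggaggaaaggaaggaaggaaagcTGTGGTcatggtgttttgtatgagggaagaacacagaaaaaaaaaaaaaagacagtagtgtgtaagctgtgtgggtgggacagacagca
Ncr1: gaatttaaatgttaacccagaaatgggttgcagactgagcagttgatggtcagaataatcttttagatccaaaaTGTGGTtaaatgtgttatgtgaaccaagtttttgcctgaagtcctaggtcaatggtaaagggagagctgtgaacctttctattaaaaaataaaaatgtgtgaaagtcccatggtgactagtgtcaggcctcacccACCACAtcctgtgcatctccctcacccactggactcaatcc
Both windows carry a core. The part of the core in the levels was not tested, and a match in these letters is not a binding site. The windows with a RUNX core include those of the relatives Klrb1a and Klrb1c, which matched at 58.1% of 260 aligned bases.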

How the data were processed

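Single-cell 5′ expression was measured in 1 library per genotype. The authors deposited 1 matrix of UMI counts for each library. The submitters' processing notes name Cell Ranger 6.0.0 and the builds GRCm38 and mm10. Gene symbols came from the matrices and positions from the RefSeq annotation of GRCm38.p6.

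Barcodes with fewer than 200 genes or over 10% mitochondrial UMIs were removed (23 KO, 11 Ctrl), as were Scrublet calls (6 KO, 5 Ctrl) and barcodes with 2 heavy chains in the deposited V(D)J contig tables, which hold UMI counts per contig (6 KO, 0 Ctrl). With Scanpy 1.11.5, counts were scaled to 10000 per cell, and 2000 variable genes, 30 components, 15 neighbours and Leiden resolution 1 gave the clusters. Clusters were named from 14 marker lists by a rule set after the clusters had been seen. Levels are summed counts per 1000000 UMIs with exact Poisson intervals. Ratios carry exact conditional binomial intervals and shares Clopper-Pearson intervals (a share of 0 is limited by 3 cells of the total), all at 95% and for counting error only. Computations used SciPy 1.17.1 and were tested on simulated data, which does not extend the intervals to the spread between cells. With 1 library per genotype, cells are not replicates and no p-value was computed.

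The receptors, the 7 gene lists, the split by granzyme and the comparisons were chosen with earlier results of these data known. From each list the up to 6 genes with the most UMIs in NK-like cells could be named, plus the 5 genes most like the receptors. Alternatives concerned filters, doublets, clustering, the split, scaling and thinning.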

Additional observations from a re-analysis of the deposited data

Results flagged for a closer look

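For 2 receptors the ratio of KO over Ctrl lay on opposite sides of 1 in the granzyme groups of NK-like cells. Klrd1 was at 0.937 in granzyme-high and 1.21 in granzyme-low cells, and Klrg1 at 0.640 in granzyme-high and 1.09 in granzyme-low cells. These differences were not tested, and the intervals of Klrd1 in granzyme-high cells (from 0.878 to just over 1) and of Klrg1 in granzyme-low cells (0.647 to 1.85) include 1. Outside the expression matrices, B cell receptor contigs were found in 5 of 62 KO and 0 of 50 Ctrl T-like barcodes, and the summed level of 10 B cell markers in T-like cells was 603 CPM in KO and 261 CPM in Ctrl. Their part in the levels was not tested beyond leaving those barcodes out.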

How the results depend on the processing

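No paired analysis was possible because each genotype has 1 library and no replicate numbers, and for the same reason no library could be left out. Over 19 alternatives, 50 ratios gave 505 further values, of which 35 crossed 1.5-fold and 12 changed sign; Klre1, on the edge, made up many of the crossings. The number of receptors past 1.5-fold between genotypes (1) became 0 at Leiden resolution 0.5 and with the Tnfsf10-led cluster counted as NK-like, and 2 with the receptors and granzymes kept in the clustering and without NK-like cells with a Cd3 UMI. At resolution 2 the count stayed at 1 but the gene changed, Klrb1a falling to a log2 ratio of 0.29 and Klrg1 passing at -0.66. The counts higher in NK-like than T-like cells (9 in KO, 8 in Ctrl) lay between 8 and 10 in KO and 6 and 10 in Ctrl; the lowest came with each cell counted equally, where receptors at 0 in T-like cells gave no ratio. Klrd1 in KO passed 1.5-fold in 4 alternatives, and Klrk1 in Ctrl in 3, at log2 ratios of 1.56 (resolution 0.5), 0.91 (receptors and granzymes kept in the clustering) and 0.66 (each cell counted equally), in place of 0.15. The counts lower in granzyme-high cells stayed between 5 and 7 in KO and 5 and 6 in Ctrl under every alternative that gave one. With receptors and granzymes kept in the clustering the NK-like class shrank to 162 KO and 98 Ctrl cells, 0 of them below its own median, so no split was possible; Klrg1 in KO over Ctrl turned there to a log2 ratio of 0.42, in place of -0.53. In granzyme-high over granzyme-low cells, the log2 ratio of Klrg1 in KO turned to -0.32 with each cell counted equally and reached 2.49 at resolution 2. That of Klra7 in Ctrl turned to 0.06 at resolution 2. Those of Klrd1 in NK-like over T-like cells reached 1.01 in KO and 2.34 in Ctrl at resolution 0.5. The cause was not tested. Thinning decides how many receptors a cell shows. At least 5 were found in 35.1% of KO and 38.8% of Ctrl NK-like cells at 1500 UMIs, 20.6% of KO and 20.4% of Ctrl cells at 1000, 70.4% of KO and 71.3% of Ctrl at 3000, 86.7% of KO and 79.0% of Ctrl at 5000, and 94.7% of KO and 92.8% of Ctrl unthinned. They were found in 26.2% of KO cells at resolution 2, and in 49.0% of KO and 51.0% of Ctrl cells with receptors and granzymes kept in the clustering. The share with any receptor was 100% in KO unthinned, and 100% in Ctrl with receptors kept in the clustering or without cells with a Cd3 UMI. The alternatives on depths of 3000 and 5000, contigs, the Tnfsf10-led cluster, Gzm totals, the median ratio and the interferon-led cluster were chosen after seeing the data.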
